A study of Arabidopsis thaliana with 24 samples.

Results

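The genes described here are ATG8 genes of Arabidopsis thaliana, the thale cress, as read by the probe sets that the array annotation names APG8A and APG8H. They are 2 of 13355 genes with a named probe set on the Affymetrix ATH1 array, which held 22746 probe sets besides controls, and each gene has a single probe set. APG8A is ATG8A, locus AT4G21980. The probe set named APG8H matched locus AT3G15580 in the RefSeq annotation (TAIR10.1), where APG8H is the symbol and ATG8I a synonym. Locus AT3G06420, to which the name ATG8H also belongs, has a probe set of its own, named ATG8H in the array annotation. The genes were chosen by name, so APG8H stands below for AT3G15580, and ATG8H for AT3G06420, whose values are given beside those of the chosen genes. All 9 genes of the family, ATG8A to ATG8I, had a probe set.

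ATG8 proteins are small and resemble ubiquitin. The protease ATG4 trims them, ATG7 and ATG3 activate and transfer them, and they end up joined to the lipid phosphatidylethanolamine on the growing autophagosome, the membrane that encloses cell material on its way to the vacuole. There they help the membrane to grow and bind the receptors that bring in cargo. In plants ATG8 transcripts are known to rise when carbon or nitrogen runs short. The ATG8H and ATG8I proteins differ from the other family members in ending at the glycine to which the lipid is joined, so that they need no trimming.

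The samples were whole seedlings, 13 days old, of wild-type Col-0 or of ALC::TOC1, in which an ethanol-responsive switch drives TOC1, a transcriptional repressor of the circadian clock. They had grown for 12 days in cycles of 12 h light and 12 h dark. For the last day they either stayed in these cycles (LD) or were moved to constant light (LL). Seedlings were then submerged for 3 h in Murashige-Skoog medium with 2.5% ethanol, or without it as a mock treatment, and harvested at ZT1, which is 1 h after lights-on or the hour that corresponds to it in LL. Every group, the mock-treated ones included, also received MG132, an inhibitor of the proteasome, at a stated 20 mM, so the data hold no seedlings with an uninhibited proteasome. With 2 genotypes, 2 light regimes and 2 treatments there were 8 groups of 3 arrays. A line with the ethanol switch and no TOC1 was not among them, and the labels used here name neither the number of ALC::TOC1 lines nor whether replicates were grown apart. The p-values therefore measure the spread between samples, which may be technical.

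TOC1 levels were not analysed here, so whether ethanol induced TOC1 is not shown. Arrays of one group correlated at 0.9885 to 0.9968. A sign of RNA degradation, the excess of 3' over 5' signal of GAPDH, averaged 1.45 ± 0.152 log2 (SD, n = 3) in wild type under mock in LL, against group means of 0.834 to 1.13 elsewhere. Outside that group the array with the most was wild-type LD ethanol replicate 1, at 1.575, which also had the highest 3' excess of actin (5.094) and ubiquitin (1.389) of all 24 arrays. A listed gene counts here as measured if it had a probe set with a single gene name in the annotation. A gene not measured may therefore still be on the array. Of 10 shoot photosynthesis markers, 3 were measured (LHCB4.1, RCA and SBPASE), with group means of 9.79 to 13.18 log2. Of 10 root and root hair markers, EXPA7 and EXPA18 were measured, with group means of 3.36 to 5.04 log2, and none of 6 seed storage markers was. In bulk samples such as these, fewer cells of a type and less RNA per cell cannot be told apart.

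Values are log2 expression on the RMA scale, where a difference of 1 is a doubling. On this scale array medians lay between 5.14 and 5.41, so APG8A, at a mean of 8.28 over the 24 arrays, and APG8H, at 9.59, were both measured well above the middle of each array. Brightness differs between probes, so the levels of different genes are not compared. Probe sequences were not used here, and binding of transcripts of one ATG8 gene to the probes of another was not tested.

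APG8A kept to a narrow range of levels across the 8 groups. In LD, wild-type mock arrays stood at 8.23, 8.17 and 8.11, and wild-type ethanol arrays at 8.44, 8.62 and 8.27. ALC::TOC1 mock arrays in LD stood at 8.33, 8.30 and 8.39, and ALC::TOC1 ethanol arrays at 8.47, 8.41 and 8.51. In LD the ethanol arrays of each genotype therefore all lay above the mock arrays of that genotype, though neither difference passed the test given below. The share of all probe sets whose arrays separate in this way was not counted.

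In LL, the APG8A level was 8.13, 8.17 and 8.30 in wild-type mock arrays and 8.47, 8.21 and 8.37 in wild-type ethanol arrays. The ALC::TOC1 mock arrays in LL read 8.20, 8.04 and 8.43, and the ALC::TOC1 ethanol arrays 8.06, 7.96 and 8.15. Mock and ethanol arrays overlapped in LL in both genotypes. The ALC::TOC1 LL ethanol arrays were the lowest group.

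By group mean, APG8A was highest in ALC::TOC1 LD ethanol (8.46 ± 0.049 log2, SD, n = 3), followed by wild-type LD ethanol (8.44 ± 0.17), wild-type LL ethanol (8.35 ± 0.13) and ALC::TOC1 LD mock (8.34 ± 0.042). Below these came ALC::TOC1 LL mock (8.22 ± 0.20), wild-type LL mock (8.20 ± 0.089), wild-type LD mock (8.17 ± 0.058) and ALC::TOC1 LL ethanol (8.06 ± 0.095). In all 7 steps of this order the arrays of the neighbouring groups overlapped. For this order and those of the genes below, such steps were not counted over all probe sets. The highest and lowest group means of APG8A differed by 0.41, against a median of 0.60 over all probe sets, and 66.1% of probe sets had a larger span. The pooled SD within groups was 0.117 log2.

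APG8H was similarly even. Its LD level was 9.64, 9.62 and 9.50 in wild-type mock arrays and 9.66, 10.02 and 9.65 in wild-type ethanol arrays. In ALC::TOC1 in LD it was 9.43, 9.35 and 9.46 under mock and 9.66, 9.52 and 9.74 under ethanol. The ethanol arrays again lay above the mock arrays of the same genotype, in wild type by a small margin apart from replicate 2. Neither of these differences passed the test given below.

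In LL, APG8H read 9.45, 9.39 and 9.61 in wild-type mock arrays and 9.50, 9.41 and 9.57 in wild-type ethanol arrays. ALC::TOC1 in LL read 9.68, 9.57 and 9.74 under mock and 9.52, 9.73 and 9.68 under ethanol. Mock and ethanol arrays overlapped in both genotypes.

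The order of APG8H group means ran from wild-type LD ethanol (9.78 ± 0.21 log2, SD, n = 3) through ALC::TOC1 LL mock (9.67 ± 0.085), ALC::TOC1 LD ethanol (9.64 ± 0.11), ALC::TOC1 LL ethanol (9.64 ± 0.11) and wild-type LD mock (9.59 ± 0.076). It ended with wild-type LL ethanol (9.49 ± 0.079), wild-type LL mock (9.48 ± 0.11) and ALC::TOC1 LD mock (9.41 ± 0.053). Neighbouring groups overlapped in all 7 steps. The span of its group means was 0.36, which 70.1% of probe sets exceeded, and the pooled SD within groups was 0.114 log2.

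ATG8H, in contrast, ranged widely. In LD it read 7.49, 7.10 and 7.29 in wild-type mock arrays and 8.23, 8.17 and 7.84 in wild-type ethanol arrays. ALC::TOC1 in LD read 7.57, 7.41 and 7.75 under mock and 8.05, 8.24 and 8.19 under ethanol. The 6 LD mock arrays were the lowest of all 24, and every LD ethanol array lay above them.

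In LL, ATG8H read 8.02, 7.85 and 8.38 in wild-type mock arrays and 8.52, 8.43 and 8.65 in wild-type ethanol arrays. ALC::TOC1 in LL read 8.32, 8.66 and 8.68 under mock and 8.14, 8.45 and 8.40 under ethanol. Ethanol arrays thus lay above mock arrays in wild type, while the ALC::TOC1 groups overlapped.

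The order of ATG8H group means ran from ALC::TOC1 LL mock (8.56 ± 0.21 log2, SD, n = 3) through wild-type LL ethanol (8.53 ± 0.11), ALC::TOC1 LL ethanol (8.33 ± 0.16), ALC::TOC1 LD ethanol (8.16 ± 0.10), wild-type LL mock (8.08 ± 0.27) and wild-type LD ethanol (8.08 ± 0.21) to the mock groups in LD. Those were ALC::TOC1 LD mock (7.57 ± 0.17) and wild-type LD mock (7.29 ± 0.20). Of the 7 steps, the gap of 0.50 between wild-type LD ethanol and ALC::TOC1 LD mock was the only one at which arrays did not overlap. How common such a gap is among all probe sets was not counted. Its group means spanned 1.26, which 15.8% of probe sets exceeded.

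**Figure D1:**
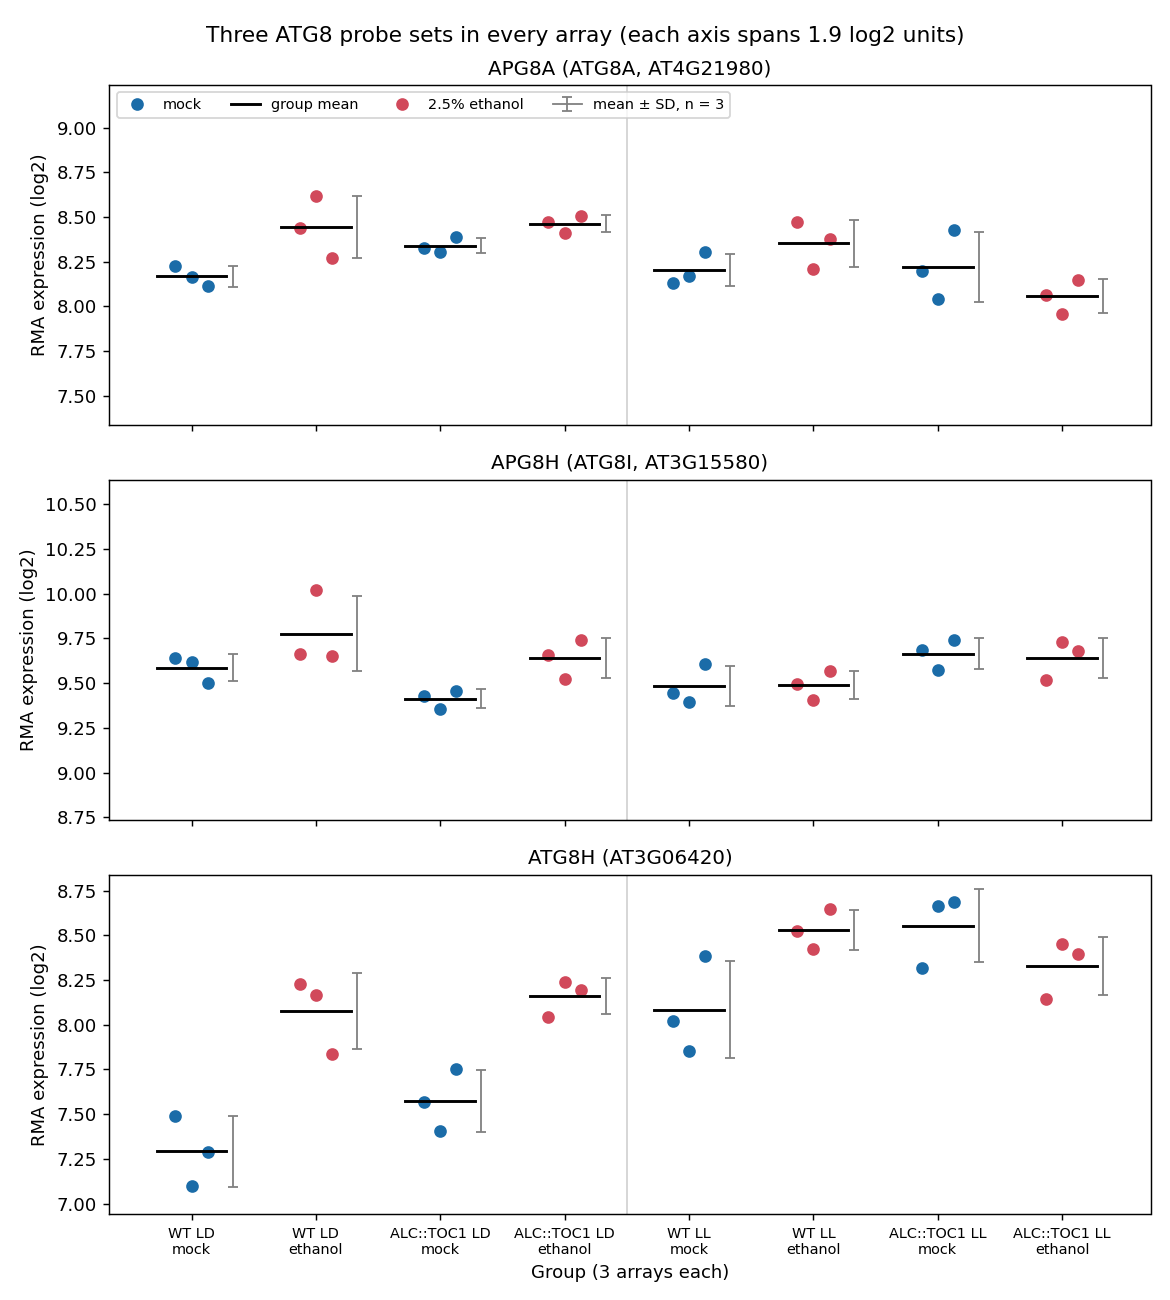
Log2 expression (RMA) of APG8A, APG8H and ATG8H in every array, by group, with LD on the left and LL on the right. Points are arrays (blue mock, red 2.5% ethanol), black bars are group means and grey bars the mean ± SD (n = 3), and each vertical axis spans the same range. Group means spanned 0.41 log2 for APG8A and 0.36 for APG8H, and 1.26 for ATG8H, whose 6 LD mock arrays are the lowest of its 24.

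The ethanol comparisons ask how the genes responded to 3 h of ethanol in each genotype and light regime. In wild type ethanol has no transgene to act on, and in ALC::TOC1 it is also meant to switch on TOC1. Each difference below is ethanol minus mock, tested with limma across all probe sets with Benjamini-Hochberg adjustment. A difference was called at an adjusted p under 0.05.

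Neither APG8A nor APG8H passed the test in any of the 4 ethanol comparisons. The difference for APG8A in wild-type LD was 0.28 ± 0.10 log2 (SE, adjusted p = 0.051), at the edge of the threshold. In ALC::TOC1 LD it was 0.12 ± 0.10 (adjusted p = 0.482), in wild-type LL 0.15 ± 0.10 (adjusted p = 0.374) and in ALC::TOC1 LL −0.17 ± 0.10 (adjusted p = 0.329). The 95% interval in wild-type LD, 0.063 to 0.49, was not adjusted for the number of probe sets. That difference passed the test in some alternative analyses, among them one with dim probe sets left out (adjusted p = 0.0371), and without any one of 4 single arrays. Those were ALC::TOC1 LL mock replicate 2 (adjusted p = 0.0401) or 3 (0.0343), wild-type LL ethanol replicate 2 (0.0473) and wild-type LD ethanol replicate 3 (0.0173). The LL arrays among them are not part of this comparison, and without them the value stayed at 0.28. In 23 of 27 settings that left out arrays the difference did not pass. Its values in the 27 ranged from 0.186 to 0.36, with adjusted p up to 0.363.

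The APG8H differences under ethanol were 0.19 ± 0.10 log2 in wild-type LD (SE, adjusted p = 0.18) and 0.23 ± 0.10 in ALC::TOC1 LD (adjusted p = 0.126). In LL they were 0.0082 ± 0.10 in wild type (adjusted p = 0.974) and −0.025 ± 0.10 in ALC::TOC1 (adjusted p = 0.917). Averaged over the 4 comparisons, the ethanol effect was 0.096 ± 0.051 log2 for APG8A (adjusted p = 0.15, 95% interval −0.010 to 0.20) and 0.10 ± 0.050 for APG8H (adjusted p = 0.12, 95% interval −0.0030 to 0.20). With each array centred on its median, both averages passed the test (APG8A 0.17, adjusted p = 0.02, and APG8H 0.18, adjusted p = 0.0206). Centring also raised the median of all probe sets in this average, from 0.0060 to 0.083 log2. Both genes' averages passed with array weights too (APG8A 0.13, adjusted p = 0.0393, and APG8H 0.12, adjusted p = 0.0418).

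ATG8H rose under ethanol in wild-type LD by 0.79 ± 0.15 log2 (SE, adjusted p = 0.000387), a call that held with any array left out. In ALC::TOC1 LD it rose by 0.59 ± 0.15 (adjusted p = 0.00635), and this call was lost when replicate 2 of all groups was left out (0.46, adjusted p = 0.15). In wild-type LL it rose by 0.45 ± 0.15 (adjusted p = 0.04). That last call was lost without wild-type LL mock replicate 1 (adjusted p = 0.12) or 2 (0.193) and without wild-type LL ethanol replicate 1 (0.0874), 2 (0.0563) or 3 (0.127). It was also lost when the GAPDH 3' excess, whose group mean was highest in those mock arrays, entered the fit as a covariate (0.42, adjusted p = 0.178). In ALC::TOC1 LL the difference was −0.23 ± 0.15 (adjusted p = 0.36). The average of the 4 was 0.40 ± 0.073 (adjusted p = 0.000136, 95% interval 0.25 to 0.55).

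Within each array, the ethanol responses of the genes were then compared directly by an exact two-sided permutation of the treatment labels within genotype and light regime. The 6 pairs of genes and factors compared this way were adjusted together. The average ethanol effects of APG8A and APG8H differed by −0.0050 log2 (exact p = 0.914, adjusted p = 0.914). The effect of ATG8H exceeded that of APG8H by 0.30 (exact p = 0.00499, adjusted p = 0.00748), and the effect of APG8A minus that of ATG8H was −0.30 (exact p = 0.00261, adjusted p = 0.00522). The ATG8H pairs were added after its values had been seen.

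Among the 9 family members in wild-type LD, 5 rose with ethanol, none fell and 4 did not pass the test. Over all probe sets, 11.2% rose and 14.9% fell in that comparison, and the family median was 0.39 log2 against −0.0025 for all probe sets. Besides ATG8H these were ATG8B (0.67, adjusted p = 0.00699), ATG8D (0.47, adjusted p = 0.00122), ATG8E (0.75, adjusted p = 0.00256) and ATG8F (0.39, adjusted p = 0.0268). The ATG8F call was lost without wild-type LD mock replicate 1 or 3 or wild-type LD ethanol replicate 1 or 2 (adjusted p = 0.0628, 0.129, 0.0815 and 0.065). The ATG8B and ATG8D calls held without any one array and were lost when replicate 1 of all groups was left out (adjusted p = 0.0998 and 0.0776). Without wild-type LD ethanol replicate 1, the array with the high 3' excess, the calls of ATG8B, ATG8D, ATG8E and ATG8H held. In the same comparison 2 of the 3 shoot markers fell, SBPASE, sedoheptulose-bisphosphatase of the Calvin cycle, by 0.71 log2 (adjusted p = 0.0022) and RCA, rubisco activase, by 0.32 (adjusted p = 0.0113), while LHCB4.1 differed by −0.087 (adjusted p = 0.557). The part of the shoot markers in these values was not tested.

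In ALC::TOC1 LD, 4 of the 9 rose and 1 fell, beside 8.31% of probe sets that rose and 10.4% that fell. The family median was 0.26 log2 and that of all probe sets −0.0048. With ATG8H, those that rose were ATG8B (0.54, adjusted p = 0.038), ATG8D (0.31, adjusted p = 0.0305) and ATG8E (0.50, adjusted p = 0.0484), while ATG8G fell by 0.37 (adjusted p = 0.021). These calls were near the threshold. That for ATG8E was lost in 20 of 27 settings that left out arrays, among them each of the 6 arrays compared. That for ATG8B was lost without mock replicate 1 or 3 or ethanol replicate 2 or 3 of ALC::TOC1 LD (adjusted p = 0.16, 0.0867, 0.0522 and 0.17). The ATG8D call was lost without mock replicate 1 or 3 or any ethanol replicate of that line in LD (adjusted p = 0.0959, 0.114, 0.0578, 0.0876 and 0.0718). The ATG8G call was lost without mock replicate 2 or 3 or ethanol replicate 1 or 2 (adjusted p = 0.0802, 0.0512, 0.0847 and 0.144).

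In LL fewer members were called. ATG8H alone of the 9 passed the test in wild-type LL, where 7.88% of probe sets rose and 7.91% fell, and the family median was 0.0082 against 0.023 for all. None passed in ALC::TOC1 LL, where 6.45% of probe sets rose and 8.92% fell. There the family median was −0.089 against −0.013 for all, and ATG8B came nearest to the threshold (0.52 ± 0.18 log2, adjusted p = 0.0533), with ethanol arrays all above mock arrays. In the average over all 4 comparisons, ATG8B (0.47, adjusted p = 0.000207), ATG8D (0.18, adjusted p = 0.00592) and ATG8H rose and ATG8G fell (by 0.18, adjusted p = 0.0118), so that 3 of 9 rose and 1 fell beside 17.4% and 21.9% of all probe sets. The ATG8D average was lost without replicate 1 or 3 of all groups (adjusted p = 0.159 and 0.0644) and the ATG8G average without replicate 1 or 2 (adjusted p = 0.0816 and 0.23). The ATG8G average was also lost after quantile normalisation (−0.12, adjusted p = 0.0995) and after median centring (−0.10, adjusted p = 0.145).

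**Figure D2:**
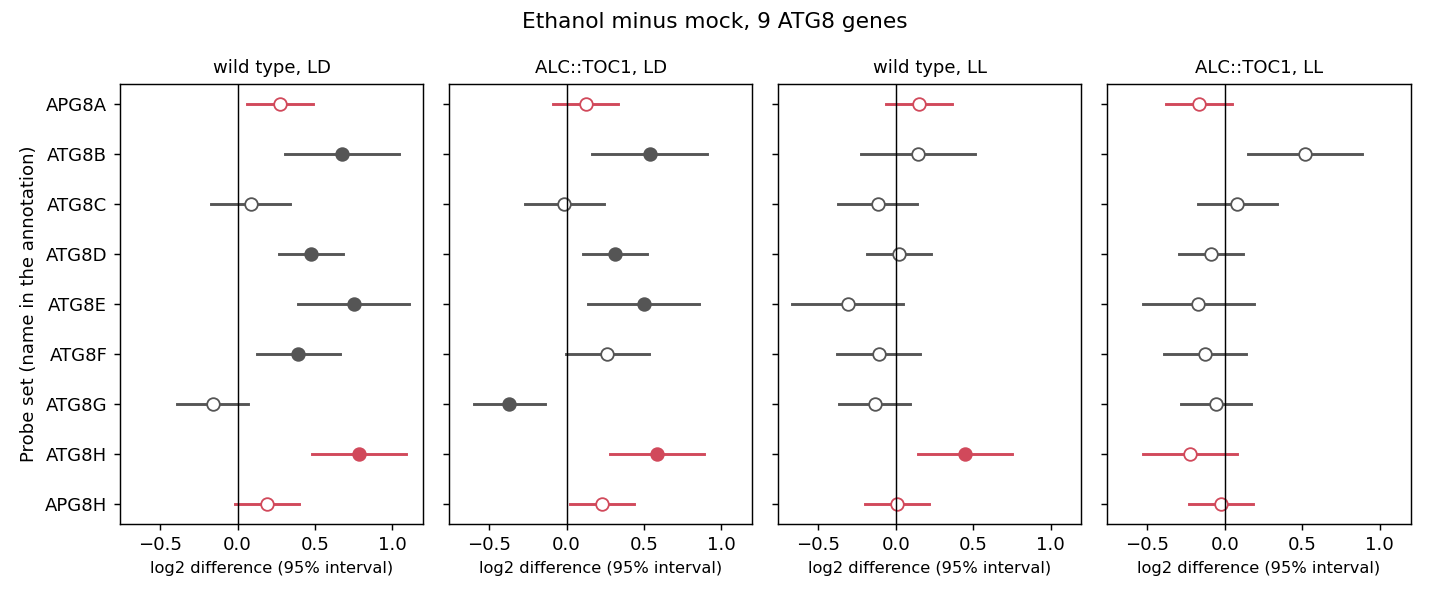
Ethanol minus mock differences (log2, horizontal axis) of the 9 ATG8 probe sets in each genotype and light regime, 3 arrays against 3. Circles are estimates, filled where the adjusted p is under 0.05, lines are 95% intervals, and APG8A, APG8H and ATG8H are in red. APG8A and APG8H are open in all 4 panels, while 5 of 9 genes are filled to the right of 0 in wild-type LD and none is filled in ALC::TOC1 LL.

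Whether the response to ethanol depended on genotype was asked by the difference between the ethanol effect in ALC::TOC1 and that in wild type. It is the comparison closest to an effect of TOC1, although the genotypes also differ in carrying the switch. It was not called for APG8A, at −0.32 ± 0.14 log2 in LL (SE, adjusted p = 0.308) and −0.15 ± 0.14 in LD (adjusted p = 0.73), with a mean of −0.24 ± 0.10 (adjusted p = 0.304, 95% interval −0.45 to −0.024). For APG8H it was −0.033 ± 0.14 in LL (adjusted p = 0.95) and 0.036 ± 0.14 in light-dark cycles (adjusted p = 0.956), with a mean of 0.0017 ± 0.10 (adjusted p = 0.997, 95% interval −0.21 to 0.21). For ATG8H it was −0.67 ± 0.21 in LL (adjusted p = 0.103) and −0.20 ± 0.21 in light-dark cycles (adjusted p = 0.765), with a mean of −0.44 ± 0.15 (adjusted p = 0.166, 95% interval −0.74 to −0.13). The LL value of ATG8H passed the test without wild-type LL mock replicate 3 (−0.82, adjusted p = 0.0411) and with array weights (−0.68, adjusted p = 0.028).

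No ATG8 gene passed this test in LL, in LD or in the mean, in limma with Benjamini-Hochberg adjustment. Over all probe sets 1.88% passed in LL, 0.413% in LD and 1.46% in the mean.

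The genotypes were also compared directly within each light regime and treatment, as ALC::TOC1 minus wild type. Under mock treatment, with no ethanol given, APG8A differed by 0.021 ± 0.10 log2 in LL (SE, adjusted p = 0.939) and 0.17 ± 0.10 in LD (adjusted p = 0.413). For APG8H the LL difference was 0.18 ± 0.10 (adjusted p = 0.314), and the LD difference −0.17 ± 0.10 (adjusted p = 0.397). For ATG8H the LL difference was 0.47 ± 0.15 (adjusted p = 0.0599), and the LD difference 0.28 ± 0.15 (adjusted p = 0.321). The LL value of ATG8H passed the test without wild-type LL mock replicate 3 (adjusted p = 0.0118), ALC::TOC1 LL mock replicate 1 (0.041) or wild-type LD ethanol replicate 3 (0.0474). The last of these arrays is not part of the comparison, and without it the value stayed at 0.47. Over all probe sets 5.96% differed under mock in LL and 5.53% in LD.

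Under ethanol, APG8A was lower in ALC::TOC1 than in wild type in LL, by −0.30 ± 0.10 log2 (SE, adjusted p = 0.0371), and every ALC::TOC1 array lay below every wild-type array. In this comparison 24.5% of all probe sets differed. The APG8A call was lost without wild-type LL ethanol replicate 1 (adjusted p = 0.17) or 3 (0.0801), or without ALC::TOC1 LL ethanol replicate 1 (0.0673) or 2 (0.145). It was also lost when these groups were fitted alone (adjusted p = 0.0854) and after median centring (−0.22, adjusted p = 0.188). In LD under ethanol APG8A differed by 0.018 ± 0.10 (adjusted p = 0.933), in a comparison where 14.3% of all probe sets differed.

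The genotype difference of APG8H under ethanol was 0.15 ± 0.10 log2 in LL (SE, adjusted p = 0.316) and −0.14 ± 0.10 in LD (adjusted p = 0.406). That of ATG8H was −0.20 ± 0.15 in LL (adjusted p = 0.362) and 0.083 ± 0.15 in light-dark cycles (adjusted p = 0.767). Neither gene was called. Of the rest of the family, ATG8C was higher in ALC::TOC1 in LL under ethanol (0.58, adjusted p = 0.00162), and so was ATG8F (0.54, adjusted p = 0.00364). This gave 2 of 9 higher and 1 lower, beside 24.5% of all probe sets that differed in either direction in that comparison. The ATG8C and ATG8F calls held without any one array and were lost without replicate 2 of all groups (adjusted p = 0.0756 and 0.0901). In the same comparison the shoot markers LHCB4.1 (0.32, adjusted p = 0.0121) and RCA (0.25, adjusted p = 0.0444) were higher in ALC::TOC1, and SBPASE differed by 0.37 (adjusted p = 0.101), and the part of these markers was not tested.

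ATG8F was also the only family member called between genotypes under mock, in LL (0.56, adjusted p = 0.012). That call was lost without wild-type LL mock replicate 1 (adjusted p = 0.108) or ALC::TOC1 LL mock replicate 3 (0.0572), and with the GAPDH excess as a covariate (adjusted p = 0.0929). In LD under ethanol ATG8G was lower in ALC::TOC1 (−0.40, adjusted p = 0.0182). It was lost without replicate 1 or 2 of wild-type LD ethanol (adjusted p = 0.051 and 0.0826) or of ALC::TOC1 LD ethanol (0.0908 and 0.117).

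The light comparisons ask how seedlings kept in constant light for a day differed, at the same hour, from those in light-dark cycles, whose night had just ended. Each is LL minus LD. They use the same arrays as the ethanol comparisons, so the values of both are not independent of each other.

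APG8A did not pass the test between light regimes in wild type under mock (0.032 ± 0.10 log2, SE, adjusted p = 0.863), in wild type under ethanol (−0.091 ± 0.10, adjusted p = 0.531) or in ALC::TOC1 under mock (−0.12 ± 0.10, adjusted p = 0.44). In ALC::TOC1 under ethanol it was lower in LL by −0.41 ± 0.10 (adjusted p = 0.00604, 95% interval −0.62 to −0.19). The highest of those LL arrays stood at 8.15 and the lowest LD array at 8.41, and the call held without any one array. It was lost when replicate 1 or 2 was left out of all groups (adjusted p = 0.0924 and 0.053). Averaged over the 4 comparisons APG8A was lower in LL by −0.15 ± 0.051 (adjusted p = 0.0208), which was lost with the GAPDH covariate (−0.12, adjusted p = 0.101) and without replicate 1 or 2 of all groups (adjusted p = 0.146 and 0.326).

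APG8H was lower in LL in wild type under ethanol, by −0.29 ± 0.10 log2 (SE, adjusted p = 0.0264). This call was lost without wild-type LL ethanol replicate 1 (adjusted p = 0.0559) or 2 (0.104). Without wild-type LD ethanol replicate 2, the array at 10.02, it was lost with a smaller difference (−0.17, adjusted p = 0.211), and with these groups fitted alone the adjusted p was 0.131. APG8H differed by −0.10 ± 0.10 in wild type under mock (adjusted p = 0.508), 0.25 ± 0.10 in ALC::TOC1 under mock (adjusted p = 0.0717) and −0.00061 ± 0.10 in ALC::TOC1 under ethanol (adjusted p = 0.997). The value in ALC::TOC1 under mock passed the test without wild-type LD ethanol replicate 2 (adjusted p = 0.0383). That array is not part of the comparison, and without it the value stayed at 0.25. The average was −0.034 ± 0.050 (adjusted p = 0.6, 95% interval −0.14 to 0.069).

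ATG8H was higher in LL. Under mock the difference was 0.79 ± 0.15 log2 in wild type (SE, adjusted p = 0.000328) and 0.98 ± 0.15 in ALC::TOC1 (adjusted p = 5.03e-05). Both calls held without any one array. Under ethanol it was 0.46 ± 0.15 in wild type (adjusted p = 0.016), lost without wild-type LL ethanol replicate 3 (adjusted p = 0.064), without wild-type LD ethanol replicate 3 (0.0988) and after median centring (0.35, adjusted p = 0.0864). In ALC::TOC1 under ethanol it was 0.17 ± 0.15 (adjusted p = 0.46). The average was 0.60 ± 0.073 (adjusted p = 5.07e-07).

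In the exact permutation of light labels within genotype and treatment, ATG8H exceeded APG8H in its light difference by 0.63 log2 (exact p = 2.5e-05, adjusted p = 7.5e-05). The light difference of APG8A minus that of ATG8H was −0.75 (exact p = 1.25e-05, the smallest that the permutations can give, adjusted p = 7.5e-05). APG8A and APG8H differed by −0.11 (exact p = 0.14, adjusted p = 0.168).

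ATG8E showed the widest light difference of the family. It was higher in LL in all 4 comparisons, by 1.77 in wild type under mock (adjusted p = 2.84e-07), 1.42 in ALC::TOC1 under mock (adjusted p = 5.16e-06), 0.71 in wild type under ethanol (adjusted p = 0.00219) and 0.75 in ALC::TOC1 under ethanol (adjusted p = 0.00311). Each of these calls held without any one array, and those under ethanol were lost without replicate 1 of all groups (adjusted p = 0.0515 and 0.0638). Its average was 1.16 ± 0.086 log2 (SE, adjusted p = 4.82e-10).

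ATG8F was higher in LL in wild type under mock (0.44, adjusted p = 0.0131), in ALC::TOC1 under mock (0.86, adjusted p = 5.3e-05) and in ALC::TOC1 under ethanol (0.47, adjusted p = 0.011). The first of these was lost without replicate 3 of wild-type LL mock (adjusted p = 0.0884) or of wild-type LD mock (0.077), and the last without any replicate number of all groups (adjusted p = 0.0819, 0.0571 and 0.0524). ATG8G was higher in LL in ALC::TOC1 under ethanol (0.51, adjusted p = 0.00181), a call that held without any one array.

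ATG8B went the other way. It was lower in LL in wild type under ethanol (−0.82, adjusted p = 0.000831), in ALC::TOC1 under mock (−0.51, adjusted p = 0.0414) and in ALC::TOC1 under ethanol (−0.53, adjusted p = 0.0364). The first held without any one array. The second was lost without ALC::TOC1 LL mock replicate 3 (−0.28, adjusted p = 0.279) or ALC::TOC1 LD mock replicate 2 or 3 (0.171 and 0.0848). The call in ALC::TOC1 under ethanol was lost without any of its LL arrays (adjusted p = 0.0639, 0.131 and 0.0553) or LD replicate 3 (0.189).

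Counted over the family, 3 of 9 were higher and none lower in LL in wild type under mock, beside 13.3% higher and 14.4% lower among all probe sets. In wild type under ethanol 2 were higher and 2 lower, beside 19.7% and 19.2%. In ALC::TOC1 under mock 3 were higher and 1 lower, beside 12.8% and 11.4%, and under ethanol 3 were higher and 2 lower, beside 11.2% and 10.7%. In the average over the 4, 3 were higher (ATG8E, ATG8F and ATG8H) and 2 lower (APG8A and ATG8B), beside 26.6% and 24.2% of all probe sets. The family median of that average was −0.013 log2, and that of all probe sets 0.017.

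**Figure D3:**
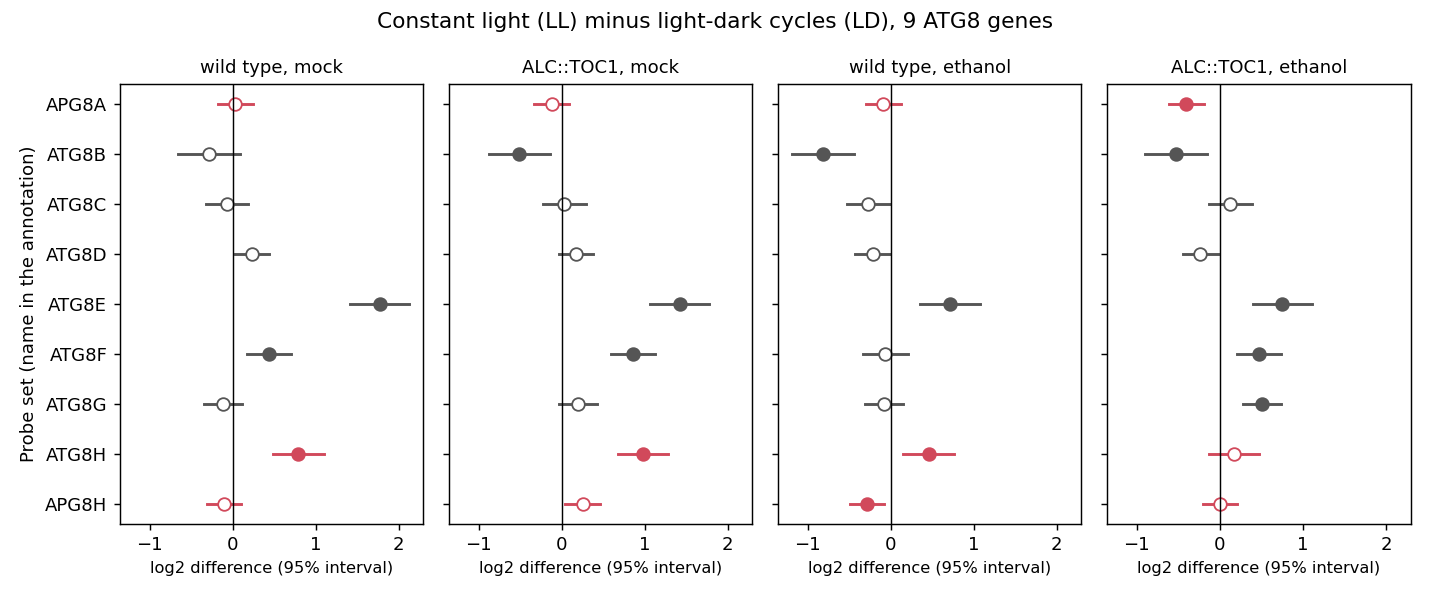
Differences between constant light and light-dark cycles (LL minus LD, log2, horizontal axis) of the 9 ATG8 probe sets in each genotype and treatment, 3 arrays against 3. Circles are estimates, filled where the adjusted p is under 0.05, and lines are 95% intervals. APG8A is filled in ALC::TOC1 under ethanol (−0.41) and APG8H in wild type under ethanol (−0.29), while ATG8E is filled at 0.71 to 1.77 in every panel.

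Both measured root hair markers were also higher in LL on average, the expansins EXPA7 by 0.65 log2 (adjusted p = 2.03e-07) and EXPA18 by 0.70 (adjusted p = 1.89e-08). Both were dim, with group means of 3.36 to 5.04 log2, below every array median. Of the 3 shoot markers, SBPASE was higher in LL (0.33, adjusted p = 0.00152), while LHCB4.1 differed by −0.00078 and RCA by −0.016. The part of organ makeup in the light differences of the ATG8 genes was not tested.

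Whether the ethanol response depended on light was tested as the ethanol effect in LL minus that in LD. For APG8A it was −0.12 ± 0.14 log2 in wild type (SE, adjusted p = 0.696) and −0.29 ± 0.14 in ALC::TOC1 (adjusted p = 0.478). For APG8H it was −0.18 ± 0.14 in wild type (adjusted p = 0.509) and −0.25 ± 0.14 in ALC::TOC1 (adjusted p = 0.55). All of these values were below 0, and none passed the test.

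For ATG8H the difference was −0.34 ± 0.21 log2 in wild type (SE, adjusted p = 0.376) and −0.81 ± 0.21 in ALC::TOC1 (adjusted p = 0.0621). The latter passed when its 4 groups were fitted alone (adjusted p = 0.0298). It also passed without wild-type LL mock replicate 3 (adjusted p = 0.0373), ALC::TOC1 LL mock replicate 1 (0.0409) or wild-type LD ethanol replicate 3 (0.0469). The wild-type arrays are not part of this comparison, and without either of them the value stayed at −0.81. In wild type 5.93% of all probe sets passed this test and in ALC::TOC1 1%, and of the 9 family members ATG8E alone passed, in wild type.

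The wider autophagy pathway was read from a list of 32 genes of the conserved machinery that acts before or on ATG8, of which 10 had a probe set with a single gene name. On average over the 4 ethanol comparisons 2 of the 10 rose, 3 fell and 5 did not pass the test, beside 17.4% and 21.9% of all probe sets, and the median was −0.024 log2 against 0.0060 for all. These shares are near those of all probe sets. The locus AT3G53930 rose by 0.45 ± 0.054 (SE, adjusted p = 7.13e-07) and AT1G77890 by 0.27 ± 0.077 (adjusted p = 0.00759). AT2G37840 fell by 0.27 ± 0.054 (adjusted p = 0.000326) and AT3G61960 by 0.26 ± 0.062 (adjusted p = 0.00197). These loci carry no gene name in the annotation used here.

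Between light regimes 2 of the 10 were higher in LL and 3 lower on average, again near the 26.6% and 24.2% of all probe sets, with a median of −0.037 log2 against 0.017 for all. AT3G53930 was higher in LL by 0.37 ± 0.054 (SE, adjusted p = 6.95e-06) and AT5G50230 by 0.17 ± 0.044 (adjusted p = 0.00273). AT3G61960 differed by −0.46 ± 0.062 (adjusted p = 1.95e-06) and AT1G77890 by −0.34 ± 0.077 (adjusted p = 0.000775). None of 8 cargo receptors on a second list had such a probe set.

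Of 10 genes known to respond to energy starvation, 3 were measured: the locus AT3G15450, MCCA, a subunit of methylcrotonyl-CoA carboxylase, and IVD, isovaleryl-CoA dehydrogenase. The enzymes MCCA and IVD act in the breakdown of leucine. On average over the ethanol comparisons 1 of the 3 rose, beside 17.4% of all probe sets. It was AT3G15450, by 0.27 ± 0.053 log2 (SE, adjusted p = 0.000266), while MCCA differed by −0.24 (adjusted p = 0.0632) and IVD by −0.23 (adjusted p = 0.122).

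In the average light difference 2 of the 3 starvation genes were higher in LL, beside 26.6% of all probe sets. AT3G15450 was higher by 0.62 ± 0.053 log2 (SE, adjusted p = 3.91e-09) and MCCA by 0.34 ± 0.10 (adjusted p = 0.00703), and IVD differed by 0.26 ± 0.12 (adjusted p = 0.0691). The MCCA average joined opposite directions. In wild type under ethanol MCCA was lower in LL (−0.62, adjusted p = 0.0174), and in ALC::TOC1 it was higher under mock (0.90, adjusted p = 0.00235) and ethanol (0.82, adjusted p = 0.00508). All 3 starvation genes were higher in LL in both ALC::TOC1 comparisons, beside 12.8% of all probe sets under mock and 11.2% under ethanol. Between genotypes under ethanol in LL, MCCA (1.17, adjusted p = 0.00024) and IVD (0.98, adjusted p = 0.00368) were higher in ALC::TOC1. AT3G15450 was not called there, with group means of 12.65 log2 in ALC::TOC1 and 12.51 in wild type. In this comparison APG8A was lower and ATG8C and ATG8F higher, and 24.5% of all probe sets differed. A link between these changes was not tested.

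Of 31 proteasome subunits, the complex that MG132 inhibits, 5 were measured, and 3 of them fell with ethanol on average, beside 21.9% of all probe sets. They were RPN12a, a subunit of the regulatory particle, by 0.22 ± 0.053 log2 (SE, adjusted p = 0.00222), AT5G23540 by 0.22 ± 0.064 (adjusted p = 0.00794) and AT4G24820 by 0.20 ± 0.069 (adjusted p = 0.0276). With each array centred on its median none of the 3 passed the test (adjusted p = 0.0566, 0.103 and 0.183). In LL 2 of the 5 were lower, beside 24.2% of all probe sets, AT4G24820 by −0.23 (adjusted p = 0.00716) and AT5G23540 by −0.18 (adjusted p = 0.0245). Leaving out arrays ended the ethanol call of AT4G24820 in 8 of 27 settings, 6 of them single arrays, and the light call of AT5G23540 in 5, 3 of them single arrays.

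Across the 24 arrays, which share groups and treatments, Pearson's r of the levels of APG8A and APG8H was 0.34. After each group's mean was taken out it was 0.68. Wild-type LD ethanol replicate 2 was the highest of the 24 arrays for both genes (8.62 and 10.02) and had the lowest array median (5.137). The part of that array in these correlations was not tested. ATG8H correlated at 0.12 with APG8A and 0.30 with APG8H. It correlated at 0.79 with ATG8E and 0.75 with ATG8F, of which the former was 0.0085 and the latter 0.52 once group means were taken out.

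The genes whose levels followed APG8A most closely among 13354 compared were AT1G18990 (r = 0.703 over 24 arrays), SDH1-1, a succinate dehydrogenase subunit (0.693), AT3G05510 (0.683), AT5G17980 (0.676) and AT3G52220 (0.676). Those nearest to APG8H were AT1G70180 (r = 0.777), AT3G61260 (0.773), AT1G04830 (0.766), AT4G33150 (0.763), the locus of a lysine-degrading enzyme, lysine-ketoglutarate reductase/saccharopine dehydrogenase, and AT1G07310 (0.76). No ATG8 gene was among them. Each of these 2 sets holds the highest of 13354 values, and the values were not tested.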

How the data were processed

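The 24 arrays, 3 for each of 8 groups, were assigned from the labels. The authors deposited log2 expression values, 1 per probe set, obtained with RMA from the package affy, per the submitters' processing notes, which give no versions. The RMA steps are background correction, quantile normalisation across arrays and a robust summary over the probes of a set, and they compress differences between dim probe sets. Values ran from 2.165 to 13.7. Arrays have no read depth, and 3 arrays a group limit the precision.

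The table held 22810 probe sets, from which 64 controls were removed. All arrays were fitted together in R 4.3.3 with limma 3.58.1 (lmFit, eBayes, a mean per group, 16 residual and 4.87 prior degrees of freedom). In each of 19 comparisons p-values were adjusted (Benjamini-Hochberg) over all 22746 probe sets and called under 0.05, two-sided. Intervals are at 95%. The fit was tested on simulated data. A single gene name was available for 13513 probe sets, more than 1 name for 503, and no name for 8730. The brightest probe set represented a gene.

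Named genes were the ATG8 family, up to 4 called members of each pathway list with the smallest adjusted p in the mean ethanol and mean light comparisons, and the 5 genes with the highest r to APG8A and to APG8H. The genes, lists and tests were chosen with earlier results of these data known. ATG8H (AT3G06420) and its alternatives were added after its values were seen. No sequence or coordinate is printed. Figures were drawn with matplotlib 3.10.9.

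Alternatives left out dim probe sets, repeated the quantile normalisation, centred arrays on their medians, used eBayes with trend and robust settings, fitted the compared groups alone, weighted the arrays, entered the replicate number as a block or the excess of 3' over 5' GAPDH signal as a covariate, and left out each array, or each replicate number, in turn.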

Additional observations from a re-analysis of the deposited data

Results flagged for a closer look

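ATG8E, the family member with the widest light difference, was the only one of the 9 called when ethanol effects were compared directly between light regimes. In wild type the others were not called, but all except ATG8G (0.026) were below 0. Among them were ATG8B (−0.53, limma adjusted p = 0.229), ATG8F (−0.50, adjusted p = 0.105) and ATG8D (−0.45, adjusted p = 0.0624). The family median was −0.34 log2, against 0.025 for all probe sets. For ATG8E in wild type the ethanol effect in LL minus that in LD was −1.06 ± 0.244 log2 (SE, limma, adjusted p = 0.0142). The wild-type LD arrays read 7.85, 8.21 and 7.86 under mock and 8.60, 8.56 and 9.01 under ethanol. The wild-type LL arrays read 9.46, 9.72 and 10.07 under mock and 9.41, 9.06 and 9.84 under ethanol. The LD groups did not overlap and the LL groups did. The call held without any one array, and was lost without replicate 1 or 2 of all groups (adjusted p = 0.0957 and 0.128) and with the 4 groups fitted alone (adjusted p = 0.0795). By group mean, the excess of 3' over 5' GAPDH signal was highest in wild-type LL mock, at 1.45 log2, and wild-type LD ethanol replicate 1 stood at 1.575. With that excess as a covariate the value was −1.22 (adjusted p = 0.0254).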

How the results depend on the processing

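For APG8A, APG8H and ATG8H, 447 values were recomputed under alternatives that kept all arrays. Of these 408 kept their direction and their side of the threshold, 7 lost a call, 14 gained one and 18 changed sign. Of 346 such values of other named genes, 326 were kept and 20 lost a call. In deviations from group means, 18 of 84 same-number pairs of arrays correlated above 0.1 (range −0.399 to 0.488), so the replicate number did not pair the arrays throughout. Wild-type LL mock and ethanol arrays of the same number correlated at 0.335, 0.0997 and 0.488. Whether those groups were paired was not tested. With the replicate number as a block no call of the 3 genes changed (APG8A mean light difference −0.15, adjusted p = 0.0231, and APG8A genotype difference under ethanol in LL −0.30, adjusted p = 0.041).

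The APG8A ethanol effect in wild-type LD passed at 0.28 with dim probe sets left out, at 0.39 (adjusted p = 0.0153) with median centring, at 0.32 (adjusted p = 0.0263) with array weights and at 0.28 (adjusted p = 0.048) with the GAPDH covariate. The mean ethanol effects passed with centring (APG8A 0.172, APG8H 0.177) and weights (APG8A 0.125, APG8H 0.116). With weights the APG8H light difference in ALC::TOC1 mock passed at 0.234, and for ATG8H the mock LL genotype difference at 0.537, the genotype by ethanol difference in LL at −0.681 and the light by ethanol difference in ALC::TOC1 at −0.788. For ATG8H, the mock LL genotype difference (0.471) also passed without dim probe sets (adjusted p = 0.0434), and the light by ethanol difference in ALC::TOC1 (−0.811) in its groups alone. Calls were lost in the compared groups alone for the APG8A genotype difference under ethanol in LL (−0.297), the APG8H light difference in wild-type ethanol (−0.286) and the ATG8H ethanol effect in wild-type LL (0.447, adjusted p = 0.103). Centring ended the first of these (−0.217) and the ATG8H light difference in wild-type ethanol (0.351). The GAPDH covariate ended the APG8A mean light difference (−0.121) and the ATG8H ethanol effect in wild-type LL (0.417). The cause was not tested. Centring moved the median of all probe sets from −0.0025 to 0.11 for ethanol in wild-type LD, from −0.0091 to −0.11 for light in wild-type ethanol, and from −0.028 to −0.10 for the genotypes in LD ethanol. For the mean ethanol effect it moved that median from 0.0060 to 0.083.

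Changes of sign were among differences near 0, and the cause was not tested. For APG8H, the ethanol effect in wild-type LL became −0.0443 with quantile normalisation and −0.0759 with the GAPDH covariate, and that in ALC::TOC1 LL 0.0742 with centring and 0.0054 with weights. The APG8H light difference in ALC::TOC1 ethanol became 0.0219, 0.0471, 0.0734 and 0.0494 with quantile normalisation, centring, weights and covariate. Its genotype by ethanol difference became 0.00555, 0.0327 and 0.058 in LL (quantile normalisation, centring, covariate), −0.0222 and −0.101 in LD (centring, weights) and −0.0602 in the mean (weights). For APG8A, the genotype difference under ethanol in LD became −0.0546, −0.0339 and −0.0244 with centring, weights and covariate, and that under mock in LL −0.0359 with the covariate. The difference of APG8A and APG8H in the mean ethanol effect became 0.00941 with quantile normalisation.

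With arrays left out, ethanol effects ranged from 0.186 to 0.36 for APG8A in wild-type LD, for APG8H from −0.0365 to 0.0713 in wild-type LL and −0.114 to 0.0471 in ALC::TOC1 LL, and for ATG8H from 0.331 to 0.597 in wild-type LL and 0.461 to 0.674 in ALC::TOC1 LD. Genotype differences of APG8A ranged from −0.0822 to 0.112 (mock LL), −0.368 to −0.236 (ethanol LL) and −0.0893 to 0.131 (ethanol LD). Those of APG8H ranged from −0.25 to 0.0442 (ethanol LD), and of ATG8H from 0.3 to 0.62 (mock LL) and −0.0554 to 0.215 (ethanol LD). Light differences of APG8A ranged from −0.0463 to 0.0963 (wild-type mock), −0.187 to 0.067 (wild-type ethanol), −0.452 to −0.357 (ALC::TOC1 ethanol) and −0.215 to −0.0785 (mean). Those of APG8H ranged from −0.387 to −0.124 (wild-type ethanol), 0.215 to 0.298 (ALC::TOC1 mock), −0.103 to 0.0702 (ALC::TOC1 ethanol) and −0.0824 to 0.000239 (mean). That of ATG8H in wild-type ethanol ranged from 0.277 to 0.554. Genotype by ethanol differences ranged for APG8H from −0.119 to 0.0605 (LL), −0.0477 to 0.17 (LD) and −0.03 to 0.0623 (mean), and for ATG8H from −0.822 to −0.557 (LL). Light by ethanol differences ranged from −0.25 to 0.0202 for APG8A in wild type and −0.929 to −0.692 for ATG8H in ALC::TOC1. The difference of APG8A and APG8H in the mean ethanol effect ranged from −0.0602 to 0.0253. With 3 arrays a group, differences in APG8A and APG8H well above the SE, 0.10 log2, could go uncalled. Values of 0.275 (APG8A, ethanol in wild-type LD) and 0.252 (APG8H, light in ALC::TOC1 mock) did not pass.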
